A study of Mus musculus with 10 samples.

Results

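The 8 genes described here encode the receptor for follicle-stimulating hormone (*Fshr*), anti-Müllerian hormone (*Amh*) and its type II receptor (*Amhr2*), the subunits of the inhibins and activins (*Inha*, *Inhba* and *Inhbb*), and the type II receptors that bind activins (*Acvr2a* and *Acvr2b*). They were taken by gene symbol, whatever their values, and all 8 were present among the 17816 genes of the day 7 table and the 20007 genes of the adult table. RNA of mouse Sertoli cells and of adult mouse testis was sequenced in 10 samples. At day 7 after birth there were 2 control samples, labelled WT and given as *Rnf20* Flox/Flox in the study's methods, and 2 samples labelled *Rnf20* conditional knockout, given there as *Amh-Rnf20*-/-. The adult table holds samples labelled as testis tissue, 3 as WT and 3 as *Rnf20* conditional knockout, and whether each is a whole testis is not stated. The growth entry of the labels names adult tissue for all 10 samples, those of day 7 included, while the extraction entry and the titles separate day 7 from adult. In the knockout, Cre is driven by the *Amh* promoter and deletes the floxed exons of *Rnf20*, which encodes a ubiquitin ligase for histone H2B, in Sertoli cells, so by design the germ cells and interstitial cells of the adult testis keep the gene. The day 7 cells were primary cultures, passaged before use, and the methods give 3 individuals per group where 2 samples were analysed. Whether the numbered samples came from separate animals is not stated, so p-values measure the spread between these samples.

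Sertoli cells are the somatic cells that hold and feed the germ cells in the seminiferous tubule. Follicle-stimulating hormone from the pituitary acts on them through FSHR, a receptor that raises cyclic AMP. Immature Sertoli cells secrete AMH, which makes the Müllerian ducts regress in the male fetus, and its transcription falls as the cells mature. Inhibin is a dimer of the α subunit, encoded by *Inha*, with a β subunit, encoded by *Inhba* or *Inhbb*, and it lowers the release of follicle-stimulating hormone. Dimers of β subunits alone are activins, which act through ACVR2A or ACVR2B. Leydig cells of the adult testis also express *Inha* and *Amhr2*.

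The genes lie apart in the genome (RefSeq genes on GRCm38.p6). *Fshr* covers chr17:88984952-89200675 on the minus strand with 10 exons, *Amh* chr10:80805240-80807679 on the plus strand with 5 exons, and *Amhr2* chr15:102445002-102454640 on the plus strand with 11 exons. *Inha* covers chr1:75507077-75510366 on the plus strand with 2 exons, *Inhba* chr13:16004256-16031609 on the plus strand, and *Inhbb* chr1:119415463-119422248 on the minus strand with 2 exons. *Acvr2a* covers chr2:48814109-48903264 and *Acvr2b* chr9:119401583-119442148, both on the plus strand. The nearest coding neighbour of *Amh*, *Sf3a2*, ends 318 bases away on the same strand. *Acvr2a* shares 446 of 5686 exon bases (7.84%) with *Orc4* on the opposite strand in the GENCODE M21 annotation. The handling of strand in the counting is not given in the sources used here, so reads from these bases cannot be told apart. Antisense annotations inside *Inhba* and *Acvr2b* share 0 exon bases with them.

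Promoter windows, from 250 bases before to 50 bases after a start site in RefSeq (GRCm38.p6), were at hand for 7 of the 8 genes. The start site is the outermost start of the gene for *Fshr*, *Inhbb* and *Acvr2a*. For *Amhr2* it lies 365 bases inside the RefSeq gene, at the first base of a GENCODE M21 transcript, and so it does for *Inhba*, 7595 bases inside. For *Acvr2b* it lies 595 bases inside, and 60 bases from the nearest GENCODE transcript start. The *Inha* window lies wholly within the gene, 532 bases from the only GENCODE start, so it is not shown. The windows of *Fshr* and *Amhr2* are printed because they held motifs of those searched, and because *Amhr2* was lower in both day 7 knockout samples and higher in all 3 adult ones. Short motifs were searched on both strands: the E-box CACGTG, the NR5A1 motif AAGGTCA, the nuclear receptor motif AGGTCA (contained in the former), the GATA motif AGATAA, the SOX motif AACAAT and the cyclic AMP response motif TGACG. Capitals mark the match, in 5′ to 3′ direction of the gene, and positions are counted from the start site of the window.
*Fshr*, E-box CACGTG at −61, chr17:89200626-89200925, minus strand: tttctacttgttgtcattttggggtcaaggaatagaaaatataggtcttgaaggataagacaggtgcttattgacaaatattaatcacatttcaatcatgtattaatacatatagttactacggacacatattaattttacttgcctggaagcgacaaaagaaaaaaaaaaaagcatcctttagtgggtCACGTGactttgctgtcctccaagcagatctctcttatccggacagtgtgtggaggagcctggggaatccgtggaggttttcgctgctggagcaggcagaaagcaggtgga
*Amhr2*, NR5A1 motif AAGGTCA at −231, chr15:102445117-102445416, plus strand: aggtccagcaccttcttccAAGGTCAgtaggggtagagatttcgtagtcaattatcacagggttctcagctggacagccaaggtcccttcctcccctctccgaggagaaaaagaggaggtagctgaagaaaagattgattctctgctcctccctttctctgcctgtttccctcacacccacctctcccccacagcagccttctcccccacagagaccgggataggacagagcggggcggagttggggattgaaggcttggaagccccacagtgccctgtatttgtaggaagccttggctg
Of all 32851 promoters of this length, 7.15% held CACGTG, 4.72% held AAGGTCA, 16.3% held AGGTCA, 11.2% held AGATAA, 10.7% held AACAAT and 20.8% held TGACG. The *Inha* window, which is not shown, held a match of AGGTCA. The last 3 motifs had no match in the windows of the 7 genes.

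The libraries held 17477268 to 17705347 counts at day 7 and 15431912 to 16574144 in adult testis. *Rnf20*, the targeted gene, was at 16.64 and 16.01 FPKM (fragments scaled to transcript length and library size) in the day 7 controls and at 10.25 and 12.58 in the *Amh-Rnf20*-/- cells. In adult testis it was at 4.89, 3.32 and 4.09 FPKM in the controls and at 9.16, 5.76 and 9.85 in the samples labelled knockout, with a log2 fold change of 0.12 (SE 0.27, adjusted p = 0.688) after TMM scaling, so the level of the whole gene does not check the labels there. The counts cover the whole gene and do not separate transcripts without the floxed exons. The paper reports that *Amh-Rnf20*-/- tubules lacked round and elongated spermatids. Spermatid markers summed to 16.04, 163.4 and 123.8 FPKM in the adult samples labelled knockout, against 130900 to 200200 in the controls, which is the direction of the labels. The samples labelled knockout differed more among themselves than the controls did. The chi-square per degree of freedom, which counting error alone would put near 1, was 34.3 between the 2 knockout samples at day 7, where the controls differed by 2.65. In adult testis it was 88.1 and 118 between the first knockout sample and the other two, which differed from each other by 21.4, and 13.7 to 17.6 among the controls. In the day 7 samples the 24 Sertoli cell markers summed to 5053 and 4854 FPKM in the controls and to 4056 and 4465 in the knockout. Those of peritubular myoid cells summed to 2515 and 2376 against 4115 and 4291, and those of stromal fibroblasts to 2152 and 2236 against 3920 and 3306. None of the markers of these 3 lists was at 0, which also held for the macrophage, endothelial and spermatogonium lists, so it does not tell the cell types apart. *Sox9*, a transcription factor that defines Sertoli cells, was at 41.84 and 39.43 FPKM in the controls and at 10.19 and 25.66 in the *Amh-Rnf20*-/- cells. *Acta2*, a smooth muscle actin of myoid cells, was at 1097 and 1058 FPKM in the controls and at 2134 and 2091 in the knockout. Spermatogonium markers summed to 215.8 and 209.8 FPKM in the controls and to 148.2 and 145.3 in the knockout. The part of other cell types in the day 7 values below was not tested.

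Log2 fold changes are knockout over control, fitted by edgeR (quasi-likelihood F-test, TMM factors), with p-values adjusted over all genes tested, and a gene was called at an adjusted p under 0.05. At day 7 none of the 8 genes was called, beside 0.0% of the 12880 genes tested. At an unadjusted p under 0.05 there were 2 genes of the 8, *Amh* and *Amhr2*, both lower, where 6.99% of all genes tested were lower at that level. DESeq2 called 0 of the 8, with *Amhr2* nearest to the threshold (adjusted p = 0.0529), and 581 genes in all (4.51%). In adult testis 4 genes were called higher (*Amh*, *Amhr2*, *Inha* and *Inhba*, the last of which passed the filter on low values only through the knockout group) and 1 lower (*Acvr2a*), beside 40.9% of 15919 genes called higher and 40.6% called lower. With most genes tested called one way or the other, a call alone does not set a member apart here. Fewer cells of a type and less RNA per cell cannot be told apart in bulk samples. The median log2 fold change of the 8 genes was −0.45 at day 7 and 1.37 in adult testis (1.03 without *Inhba*), beside 0.00 and 0.01 over all genes tested. At an adjusted p under 0.001 with a log2 fold change over 1, only *Inhba* of the 8 passed in adult testis, where 23.0% of all genes did. With total-count scaling the median over all adult genes was 0.87, so the TMM values given below are relative to the centre of all genes, and 6 of the 8 genes were then called higher beside 54.1% of all genes.

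**Figure D1:**
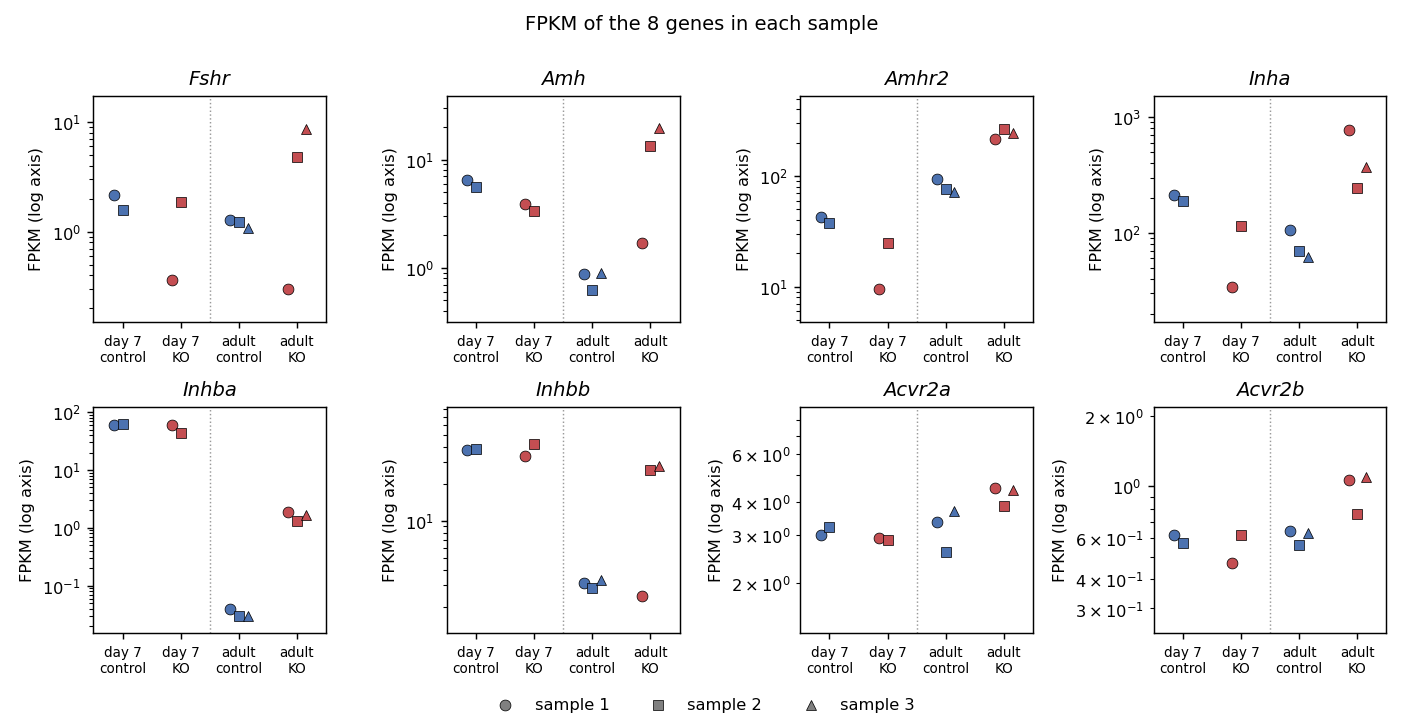
FPKM of each of the 8 genes (vertical log axes) in the 10 samples, with controls in blue and samples labelled knockout in red, 1 point per sample and its number by shape. *Amh*, *Amhr2* and *Inha* were lower in both day 7 knockout samples and higher in all 3 adult samples labelled knockout, while the first knockout sample (circle) was the lowest for *Fshr* in both tables.

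The receptor for follicle-stimulating hormone was the member with the widest fold range among the knockout samples of each table. In day 7 cells *Fshr* was at 2.16 and 1.59 FPKM in the controls and at 0.36 and 1.87 in the *Amh-Rnf20*-/- samples. The second knockout sample lay between the controls and the first far below them. *Fshr* had a log2 fold change of −0.71 (SE 0.75, adjusted p = 0.695). Without the first knockout sample, which held 13 counts of *Fshr*, it was 0.04, and without the second −2.34. In adult testis the controls held 1.29, 1.22 and 1.08 FPKM, and the samples labelled knockout 0.30, 4.76 and 8.70 (10, 162 and 283 counts). Here too the first knockout sample fell below every control and the other two above. The log2 fold change was 1.03 (SE 0.95, adjusted p = 0.345), and without the first knockout sample it was 1.70 (SE 0.27, adjusted p = 3.5e-04). Without the second it was 0.99 (adjusted p = 0.462), without the third 0.38 (adjusted p = 0.746), and with the replicate block 0.38 (adjusted p = 0.785). With total-count scaling of all samples it was 1.93 (adjusted p = 0.112). The groups therefore overlapped in both tables, and no rise or fall of *Fshr* was established with all samples.

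*Amh*, the hormone of the immature Sertoli cell, was low in these cultures beside the inhibin subunits. It was at 6.41 and 5.56 FPKM in the day 7 controls and at 3.87 and 3.33 in the *Amh-Rnf20*-/- cells. Both knockout samples lay below both controls, and the 2 knockout samples differed little from each other. The log2 fold change was −0.69 (SE 0.19, adjusted p = 0.245), and without the first knockout sample it was −0.81 (−0.85 if total counts were used too). Without the second it was −0.59. In adult testis *Amh* was at 0.88, 0.63 and 0.89 FPKM in the controls and rose to 1.70, 13.40 and 19.47 in the samples labelled knockout. All 3 were above the controls, but the first, with 39 counts against 15 to 21 in the controls, by much less than the others. The log2 fold change was 2.95 (SE 0.84, adjusted p = 0.0162), and 3.58 (adjusted p = 1.17e-06) without the first knockout sample. The call was lost without any one of the controls, with adjusted p = 0.0539 without the first, 0.0612 without the second and 0.0538 without the third, and with the replicate block (2.51, adjusted p = 0.0638).

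*Amhr2*, the AMH receptor, was more abundant per length than its ligand in every sample. At day 7 it was at 43.06 and 37.33 FPKM in the controls and at 9.58 and 24.65 in the *Amh-Rnf20*-/- cells. Both knockout samples lay below the controls, the first by more. For *Amhr2* the log2 fold change was −1.19 (SE 0.45, adjusted p = 0.322), −0.67 without the first knockout sample and −2.02 without the second. Adult controls held 94.03, 76.62 and 71.42 FPKM and the samples labelled knockout 214.13, 266.33 and 245.08. These groups did not overlap, and the knockout samples were close together. *Amhr2* rose by a log2 fold change of 0.72 (SE 0.17, adjusted p = 0.00802), or 1.58 with total-count scaling, and it was called with any sample left out.

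*Inha*, the α subunit shared by the inhibins, was the most abundant of the 8 genes per length in the day 7 controls. Its level was 211.49 and 188.70 FPKM there against 33.86 and 113.47 in the *Amh-Rnf20*-/- cells. The groups did not overlap, and the knockout samples were farther apart than the controls. The log2 fold change was −1.40 (SE 0.56, adjusted p = 0.344), −0.78 without the first knockout sample and −2.50 without the second. In adult testis *Inha* was at 106.00, 69.02 and 61.75 FPKM in the controls and at 765.73, 244.87 and 368.15 in the samples labelled knockout. All 3 of these were above the controls, and the first, which had the lowest *Fshr* and *Amh* of the 3, had the highest *Inha*. *Inha* rose by a log2 fold change of 1.73 (SE 0.49, adjusted p = 0.0156). The call was lost without the second control (adjusted p = 0.0595) or the third (adjusted p = 0.0630), and the change was 1.22 (adjusted p = 7.98e-04) without the first knockout sample.

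Neither β subunit was called at day 7 with all samples. *Inhba*, which encodes βA, was at 60.16 and 61.92 FPKM in the controls and at 59.10 and 43.29 in the *Amh-Rnf20*-/- cells. The first knockout sample was close to the controls and the second below them, and the log2 fold change was −0.21 (SE 0.17, adjusted p = 0.599). Without the first knockout sample it was −0.46, and without the second −0.0069. *Inhbb*, which encodes βB, was at 37.70 and 38.00 FPKM in the controls and at 33.67 and 41.99 in the knockout. These samples lay on either side of the controls, and the log2 fold change was 0.04 (SE 0.12, adjusted p = 0.912) (−0.00083 with total-count scaling). Without the first knockout sample it was 0.19 (0.15 if total counts were used too), and without the second −0.13.

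In adult testis *Inhba* was nearly silent in the controls, at 0.04, 0.03 and 0.03 FPKM, and was at 1.90, 1.32 and 1.66 FPKM in the samples labelled knockout. The control values rest on 5, 4 and 4 counts, 13 in all (exact 95% Poisson interval 6.92 to 22.2, counting error only), and those of the knockout on 197, 145 and 172. *Inhba* passed the filter on low values only through the knockout group, so the filter itself favoured its call. Fitted on all genes with no filter, it was called too, with a log2 fold change of 4.51 (adjusted p = 5.56e-05). The size of the change rests on few control counts and is 4.48 (SE 0.30) after the filter and 1.34 on log2(FPKM + 1). *Inhbb* was at 3.14, 2.87 and 3.32 FPKM in the controls and at 2.44, 25.80 and 27.98 in the samples labelled knockout. The first knockout sample fell below every control and the others far above. The log2 fold change was 1.70 (SE 0.78, adjusted p = 0.0853), and without the first knockout sample it was 2.34 (SE 0.11, adjusted p = 1.66e-07). Without the second it was 1.38 (adjusted p = 0.207) and without the third 1.49 (adjusted p = 0.188), and with total-count scaling of all samples it was 2.59 (adjusted p = 0.025).

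Both activin receptors were low in both tables. *Acvr2a* was at 3.01 and 3.21 FPKM in the day 7 controls and at 2.94 and 2.88 in the *Amh-Rnf20*-/- cells, with a log2 fold change of −0.06 (SE 0.12, adjusted p = 0.853). *Acvr2b* was at 0.62 and 0.57 FPKM in the controls and at 0.47 and 0.62 in the knockout, with a log2 fold change of −0.09 (SE 0.21, adjusted p = 0.878). For neither gene did the test separate the groups at day 7. In adult testis *Acvr2a* was at 3.35, 2.60 and 3.70 FPKM in the controls and at 4.49, 3.86 and 4.41 in the samples labelled knockout. Its log2 fold change was −0.44 (SE 0.16, adjusted p = 0.0425) after TMM scaling and 0.40 (adjusted p = 0.0716) with total-count scaling, so its direction followed the scaling. The call was lost without the first control (adjusted p = 0.10), the third control (0.129), the second knockout sample (0.133) or the third (0.120), and also with no filter on low values (0.0622) and with the replicate block (0.0546). *Acvr2b* was at 0.64, 0.56 and 0.63 FPKM in the controls and at 1.06, 0.76 and 1.09 in the samples labelled knockout. Its log2 fold change was −0.15 (SE 0.21, adjusted p = 0.529) after TMM scaling and 0.70 (adjusted p = 0.0209) with total-count scaling.

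**Figure D2:**
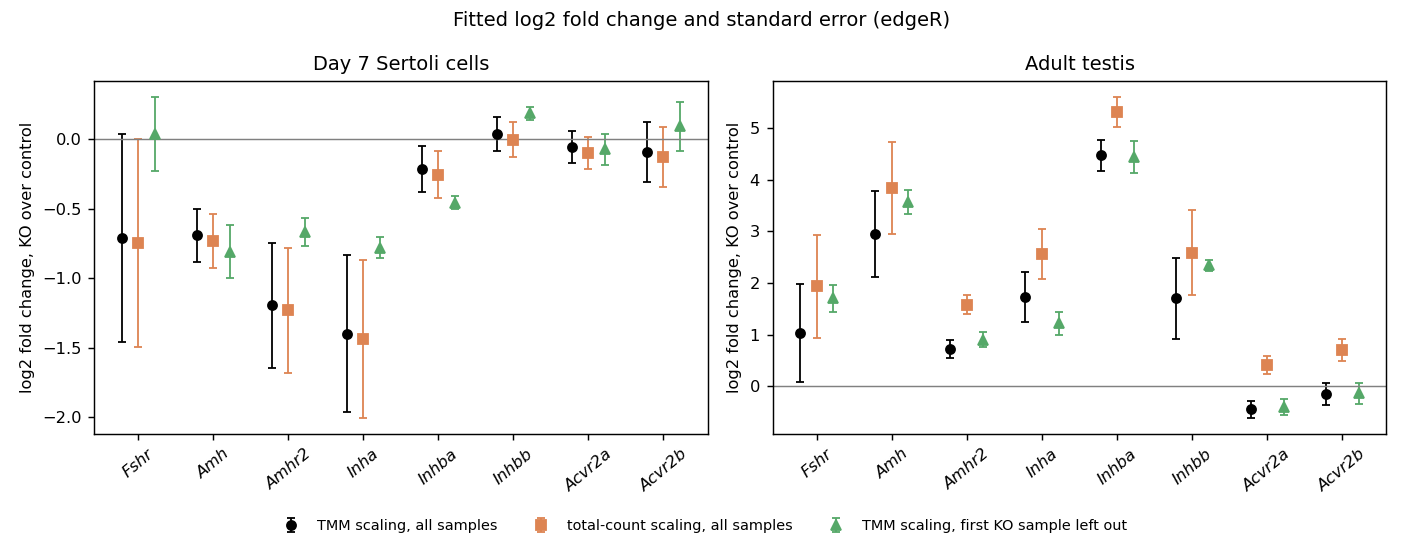
Fitted log2 fold change, knockout over control, with its standard error (bars) for the 8 genes at day 7 and in adult testis, with TMM scaling (circles), total-count scaling (squares) and TMM scaling without the first knockout sample (triangles). *Amh*, *Amhr2* and *Inha* lie below 0 at day 7 and above 0 in adult testis at each setting shown, *Inhba* reaches 4.48 in adult testis, and adult *Acvr2a* and *Acvr2b* change sign with total-count scaling.

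Leaving out the first knockout sample changed the count of called members in both tables. At day 7 *Amh*, *Amhr2*, *Inha* and *Inhba* were then lower, beside 11.0% of all genes, and *Inhbb* higher, beside 9.82%. With total counts in the same fit the calls of *Amh* and *Inhbb* were lost. Without the second knockout sample instead, *Fshr*, *Amhr2* and *Inha* were lower, beside 17.5% of all genes. In these day 7 fits the lone knockout sample was assumed to vary like the controls. The 2 knockout samples differed far more than the controls did (chi-square per degree of freedom 34.3 against 2.65). The assumption was therefore not met, and these calls only show dependence on the sample left out. The same holds for the day 7 counts below that leave 1 knockout sample. In adult testis without the first knockout sample, 6 members were higher (all but the activin receptors), beside 45.0% of all genes, and *Acvr2a* lower, beside 41.1%. In adult testis *Inhba* is counted although it passed the filter only through the knockout group. On TMM-scaled counts *Amh*, *Amhr2* and *Inha* were lower without overlap at day 7, as were 26.1% of all genes, and these and *Inhba* were higher without overlap in adult testis, as were 42.4%. For adult *Amh* the first knockout sample cleared the third control only narrowly, with scaled values of 1.92 and 1.70. Adult *Acvr2a* was lower without overlap on TMM-scaled counts and higher without overlap on total-scaled counts. The share of all adult genes lower without overlap was not counted.

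The order of the 8 levels differed between the tables. In the day 7 controls the mean FPKM ran from *Inha* (200.1) through *Inhba* (61.04), *Amhr2* (40.2), *Inhbb* (37.85), *Amh* (5.99), *Acvr2a* (3.11) and *Fshr* (1.88) to *Acvr2b* (0.595), and of these neighbours only *Amhr2* and *Inhbb* overlapped between samples. In the *Amh-Rnf20*-/- cells *Inha* had a mean of 73.66 and overlapped with *Inhba* at 51.2, and *Amhr2* at 17.11 stood below *Inhbb* at 37.83. In the adult controls *Amhr2* (80.69) and *Inha* (78.92) overlapped at the top, *Acvr2a* (3.22) overlapped with *Inhbb* (3.11), *Fshr* (1.20) stood above *Amh* (0.800), *Amh* overlapped with *Acvr2b* (0.610), and *Inhba* (0.0333) was last. In the adult samples labelled knockout *Inha* (459.6) and *Amhr2* (241.8) overlapped at the top, followed by *Inhbb* (18.74), *Amh* (11.52), *Fshr* (4.59) and *Acvr2a* (4.25), each of which overlapped with the next. *Inhba* (1.63) and *Acvr2b* (0.970) came last. The day 7 and adult tables hold different material and were made separately, so no test was made between them.

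Ratios of 2 genes within a sample depend on the scaling between libraries only through the constant added to each value. They were taken on FPKM + 0.1, for 8 pairs in each table, and compared by permuting the samples exactly (two-sided), where the smallest p possible is 0.33 at day 7 and 0.1 in adult testis. At day 7 the ratio of *Inhbb* to *Inha* was 0.179 and 0.202 in control cells against 0.994 and 0.371 in *Amh-Rnf20*-/- cells, a log2 difference of 1.68 (exact permutation p = 0.33, adjusted p = 0.889), and of 0.96 without the first knockout sample and 2.39 without the second. For *Inhba* to *Inha* the control ratios were 0.285 and 0.329 and the knockout ratios 1.74 and 0.382, a log2 difference of 1.42 (exact permutation p = 0.33), which was 0.32 without the first knockout sample and 2.51 without the second. In both pairs the knockout samples lay above the controls, so the β subunits were higher relative to the α subunit in each knockout sample. The ratio of *Fshr* to *Inha* also lay above the controls, with a log2 difference of 0.65 (exact permutation p = 0.33; 0.47 to 0.83 with samples left out). The other 5 ratios overlapped between the groups.

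In adult testis 3 ratios were higher in all 3 samples labelled knockout, each with an exact permutation p = 0.1 and an adjusted p of 0.267. The ratio of *Amh* to *Fshr*, 2 genes of the Sertoli cell, was 0.705, 0.553 and 0.839 in control testis against 4.50, 2.78 and 2.22 in the samples labelled knockout, a log2 difference of 2.14, or 1.44 with a pseudocount of 1. The first knockout sample, low for *Fshr* at 10 counts, was the highest here. *Inhba* to *Inha* differed by 1.27 and *Inhba* to *Inhbb* by 1.75 on the log2 scale (the latter by 0.50 without the first knockout sample), but these rest on control values of *Inhba* below the pseudocount, and with a pseudocount of 1 they were −1.06 and −0.42. *Inhbb* to *Inha* was 0.0305, 0.0430 and 0.0553 in control testis against 0.00332, 0.106 and 0.0763 in the samples labelled knockout. *Amhr2* to *Amh* was 96.0, 105 and 72.2 in control testis against 119, 19.7 and 12.5 in the samples labelled knockout. In both, the first knockout sample lay on the other side of the controls from the remaining samples. *Acvr2b* to *Acvr2a* stayed between 0.188 and 0.264 in all 10 samples.

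**Figure D3:**
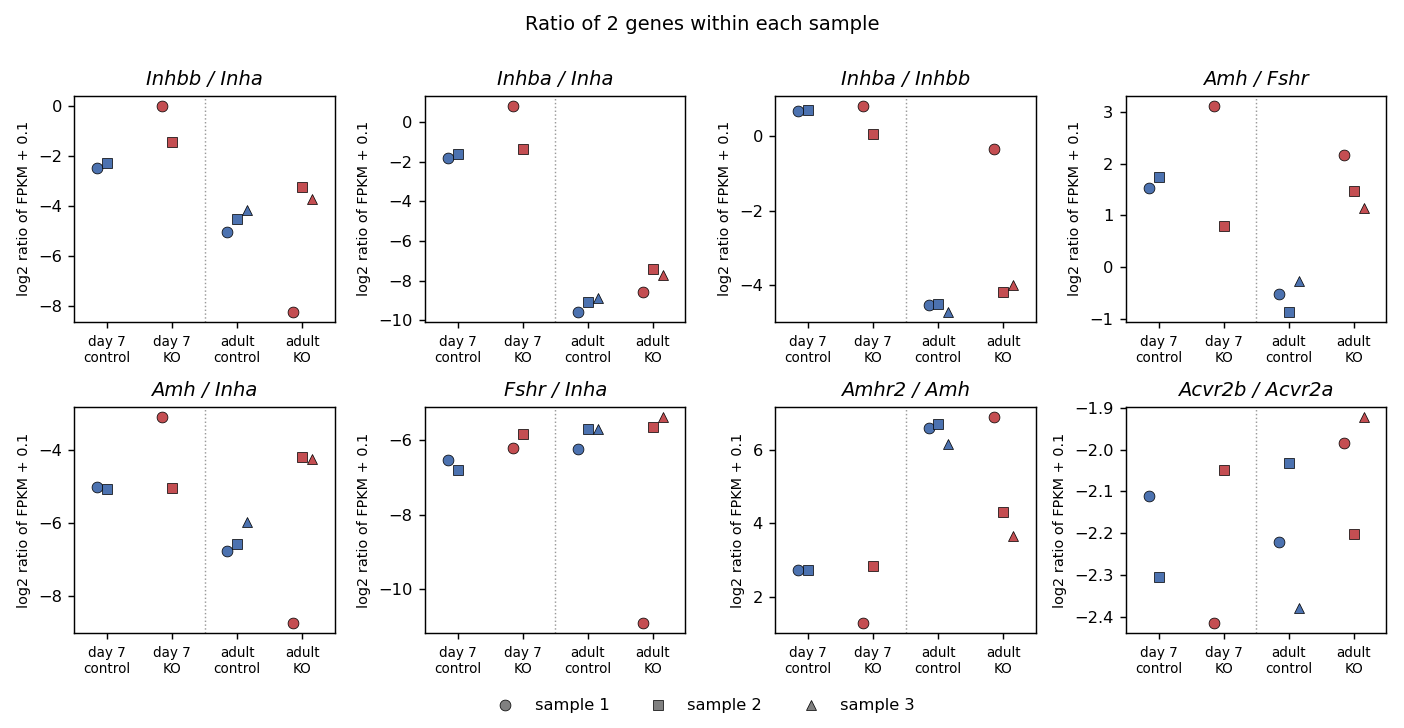
Log2 ratio of FPKM + 0.1 for 8 pairs of genes (vertical axes, each with its own range) in the 10 samples, 1 point per sample, controls in blue and samples labelled knockout in red. *Amh* / *Fshr* separates the adult groups (0.553 to 0.839 against 2.22 to 4.50 as linear ratios), and *Inhbb* / *Inha* lies above the controls in both day 7 knockout samples.

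Adult testis is a mixture of cell types. Markers of several cell types moved with the groups, but those of spermatogonia did not. The summed FPKM of 24 Sertoli cell markers was 1880 to 2849 in control testis against 5652, 11840 and 13040 in the samples labelled knockout, with none of the markers at 0 in any sample. *Sox9* was at 2.34, 1.37 and 1.77 FPKM in the controls and at 1.20, 9.86 and 12.65 in the samples labelled knockout, and these 3 samples had the same order for *Fshr*, *Amh* and *Inhbb*. The sum of 8 Leydig cell markers was 4067 to 5656 in control testis against 65460, 90280 and 72940 in the samples labelled knockout, with *Cyp17a1*, a steroidogenic enzyme, at 74.22 to 195.97 and 2233 to 3374 FPKM. Fibroblast markers summed to 40.5 to 53.37 and 1303 to 3390, and macrophage markers to 80.53 to 95.12 and 2446 to 3624. The 12 spermatid markers summed to 130900 to 200200 in the controls and to 16.04, 163.4 and 123.8 in the samples labelled knockout, where *Prm1*, a protamine of the sperm nucleus, was at 0.00 FPKM in the first. Spermatogonium markers summed to 269.3 to 299.9 FPKM in the controls and to 48.38, 308.3 and 450.8 in the samples labelled knockout. Spermatocyte markers summed to 1213 to 1264 FPKM in the controls and to 10.59, 174.2 and 289.2 in the samples labelled knockout. The part of these mixtures in the adult values of the 8 genes was not tested.

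**Figure D4:**
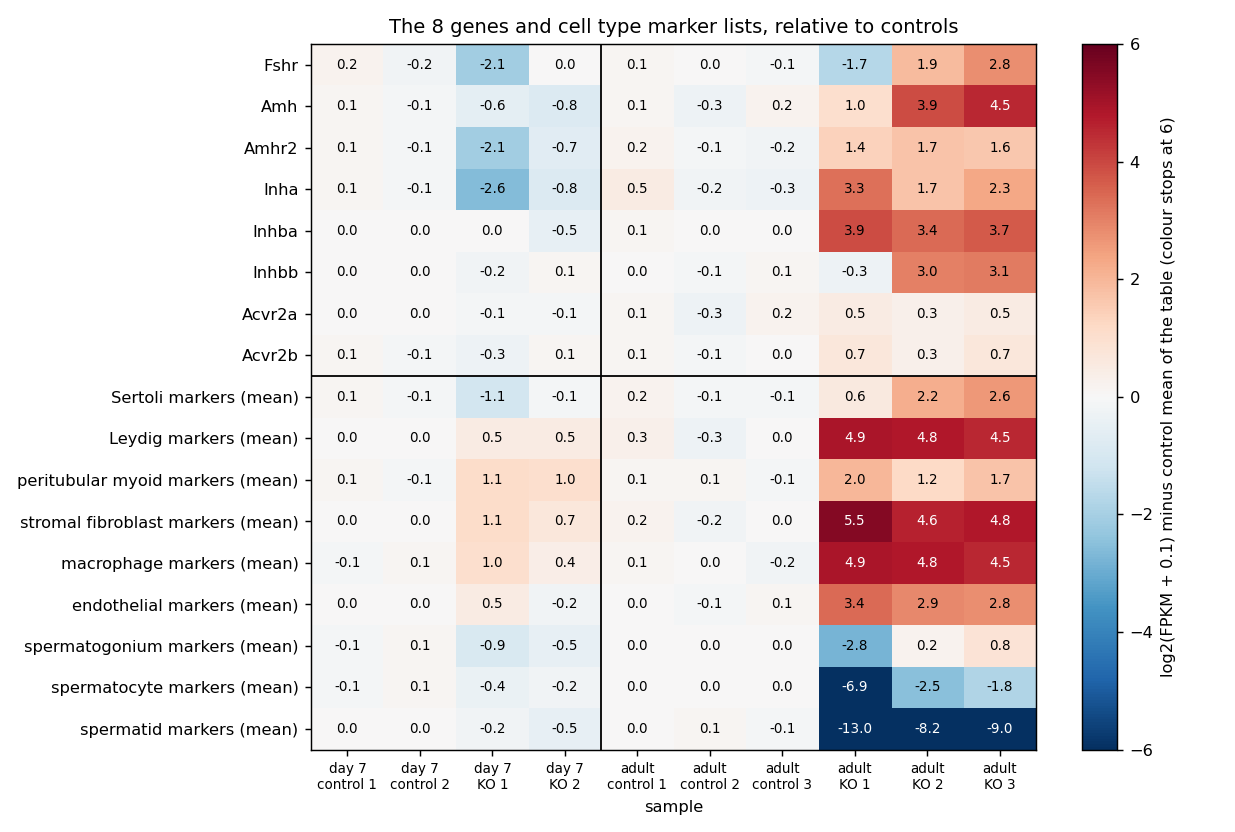
Log2(FPKM + 0.1) of the 8 genes and the mean of it over each marker list (rows) in the 10 samples (columns), each minus the mean of the controls in its table, printed in each cell and coloured from blue (lower) to red (higher), with colour stopping at 6. In adult testis the first knockout sample stands at −1.69 for *Fshr*, −0.34 for *Inhbb* and 0.62 for the Sertoli markers, where the other two are at 1.91 and 2.77, 3.01 and 3.13, and 2.22 and 2.59.

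Each member was therefore also set against the mean log2(FPKM + 0.1) of the Sertoli cell markers of the same sample, 23 of the 24 in each table. In adult testis this mean mixes markers that went opposite ways in the first knockout sample, where 12 of the 23 were above every control and 11 below. *Dmrt1* was at 0.57 FPKM there against 6.07 to 6.62 in the controls, while *Nr5a1*, which Leydig cells express too, was at 225.12 against 6.17 to 7.26. In the other two knockout samples 21 of the 23 were above. In adult testis the level of *Amh* relative to the markers was on average 1.30 higher on this log2 scale in the samples labelled knockout (exact permutation p = 0.1, adjusted p = 0.4), and all 3 lay above the controls, as for 18.6% of all genes tested. With a pseudocount of 1 it was 0.63 (exact permutation p = 0.3) and with the median of the markers 0.84 (exact permutation p = 0.4), and the groups then overlapped. The relative level of *Inhba* was 1.85 higher (1.14 without the first knockout sample) (exact permutation p = 0.1), again without overlap but with −0.40 at a pseudocount of 1. *Amhr2* differed by −0.24, *Inhbb* by 0.11, *Inha* by 0.59 and *Fshr* by −0.84 (−0.088 without the first knockout sample), with groups that overlapped (exact permutation p = 0.3 to 1). Without the first knockout sample *Amhr2* differed by −0.75, *Inhbb* by 0.65 and *Inha* by −0.46, and the groups were then apart. They were also apart for *Amhr2* with the median of the markers (−0.71) and for *Fshr* with a pseudocount of 1 (−0.82). *Acvr2a* and *Acvr2b* differed by −1.43 and −1.25 with all samples, where the groups overlapped (exact permutation p = 0.2 and 0.3). Without overlap, each at an exact permutation p = 0.1, they differed by −2.06 and −1.91 without the first knockout sample, by −1.42 and −1.46 with a pseudocount of 1 and by −1.89 and −1.72 with the median of the markers. The share of all adult genes with groups apart in these ways was not counted, so this does not set members apart. At day 7 the level of *Inha* relative to the Sertoli markers was on average 1.06 lower in the *Amh-Rnf20*-/- samples than in the controls, and that of *Amhr2* 0.75 lower, with both knockout samples below both controls, as for 2.39% of all genes tested. The relative level of *Inhbb* was on average 0.62 higher and that of *Acvr2b* 0.51 higher, with both knockout samples above (exact permutation p = 0.33 each, adjusted p = 0.667). Of all genes tested 48.5% stood above in this way, and the mean over the 24 markers was at −1.15 and −0.10 against the controls in the knockout samples. Without the first knockout sample these differences were −0.69, −0.58, 0.27 and 0.17, and without the second −1.42, −0.92, 0.96 and 0.85. With the median of the markers they were −0.71 for *Inha*, −0.40 for *Amhr2*, 0.96 for *Inhbb* and 0.86 for *Acvr2b*. *Amh* differed by −0.09 with overlap, by −0.70 without the first knockout sample and by 0.52 without the second, so its direction followed the sample left out.

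The wider pathways were read from 5 lists of genes. In adult testis 46 of 57 list genes tested were called, or 80.7%, beside 81.5% of all genes. Of these 38 (66.7%) were higher, beside 40.9% of all genes, and 8 (14.0%) lower, beside 40.6%. Among the 38, 8 were below 0.5 FPKM in every control and so passed the filter only through the knockout group. With total-count scaling 47 (82.5%) were higher, beside 54.1%. Of 17 genes of the cyclic AMP cascade below FSHR, 11 were higher and 3 lower. *Prkacb*, a catalytic subunit of protein kinase A, rose by 2.99 on the log2 scale, the adenylyl cyclase *Adcy9* by 2.82, the stimulatory G protein *Gnas* by 2.58 and the regulatory subunit *Prkar2b* by 2.23. *Crem*, a cyclic AMP responsive transcription factor of spermatids, fell by 4.46, from 128.5 to 140.2 FPKM in the controls to 7.69 to 14.48. The phosphodiesterase *Pde4a* fell by 3.74 and *Prkar2a* by 3.65. The 3 that fell were also called lower with total-count scaling.

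Ligands and binding proteins of the inhibin and activin system were higher in 8 of 10 genes tested and lower in 0, beside 40.9% and 40.6% of all genes. *Tgfbr3*, the inhibin co-receptor betaglycan, rose from 1.40, 1.77 and 2.52 FPKM to 45.07, 25.81 and 21.61, a log2 fold change of 3.19. The proprotein convertases *Furin* and *Pcsk5* rose by 3.40 and 3.56. *Igsf1* was called at 0.00 to 0.03 FPKM in the controls, 1 count in all, against 0.58 to 0.61 in the samples labelled knockout, and no fold is given against so few counts. Among 11 activin type I receptors and SMADs, 6 were higher and 4 lower, beside the same shares of all genes. The type I receptor *Acvr1* rose by 3.45 on the log2 scale, and *Acvr1c* was called at 0.04 to 0.06 FPKM in the controls, 21 counts in all, against 1.21 to 1.66 in the samples labelled knockout. *Igsf1*, *Acvr1c*, *Pcsk5* and *Smad7* were among those that passed the filter only through the knockout group. The inhibitory *Smad7* rose by 3.36 and *Smad3* by 2.37. *Foxh1*, a SMAD partner, fell by 4.72, the ubiquitin ligase *Smurf1* fell by 1.61 (at −0.75 with total-count scaling, also called), and *Smurf2* fell by 1.16. *Acvr1b* was called lower at −0.54 and was at 0.31 with total-count scaling, where neither it nor *Smurf2* (−0.30) was called.

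The type I receptors and SMADs of AMH signalling were higher in 7 of 9 genes tested and lower in 0, beside 40.9% and 40.6% of all genes. They share *Acvr1* and *Smad4* with the former list. *Id3*, *Id1* and *Id2*, transcriptional inhibitors that respond to this class of receptor, rose by 4.72, 4.45 and 2.85 on the log2 scale, with *Id3* at 2.34 to 2.45 FPKM in the controls and at 204.2, 62.01 and 70.35 in the samples labelled knockout. The first knockout sample was the highest for all 3 *Id* genes, as it was for *Inha*. Of 12 regulators of *Amh* transcription, 8 were higher and 1 lower, beside the same shares of all genes. *Nr5a1*, which activates *Amh* and steroidogenic genes, rose by 3.76, *Gata4* by 3.03 and *Usf1* by 2.05. *Zfpm2* was called lower at −0.49 and was at 0.36 (not called) with total-count scaling.

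At day 7 none of the 55 list genes tested was called by edgeR, and 18 (32.7%) had an unadjusted p under 0.05, beside 15.5% of all genes tested. Genes with the smallest p-values of each list are given here as values. Among the binding proteins, *Igsf10* had a log2 fold change of 0.93 (adjusted p = 0.138), *Tgfbr3* of 1.09 (0.141) and *Fstl1* of 0.78 (0.178). *Tgfbr3* was at 6.32 and 6.21 FPKM in the controls and at 14.86 and 11.01 in the *Amh-Rnf20*-/- cells. Among the AMH signalling genes, *Id2* had 0.82 (adjusted p = 0.141), *Id3* 1.30 (0.149) and *Id1* 1.28 (0.199). *Id3* was at 37.56 and 39.43 FPKM in the controls and at 109.8 and 74.64 in the knockout. In the cyclic AMP cascade the log2 fold changes were 0.26 for *Prkaca*, −0.25 for *Prkar2a* and 0.65 for *Pde4b*, and among activin receptors and SMADs they were −0.27 for *Acvr1*, 0.24 for *Smad2* and 0.14 for *Acvr1b*. Of the regulators of *Amh*, *Wt1* had −0.49 (adjusted p = 0.195) and *Sox9* −1.14 (0.329). Without the first knockout sample 23 of the list genes (41.8%) were called at day 7, beside 20.8% of all genes, and without the second 35 (63.6%), beside 37.7%.

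Genes with the most similar pattern were sought among the 11291 genes with a mean FPKM of at least 1 in both tables. The measure was the root mean square distance of log2(FPKM + 0.1), centred within each table, over the 10 samples. *Tmem184a* (0.214) and *Sowahd* (0.258) were nearest to *Fshr*, *Aplp1* (0.168) and *Sox4* (0.225) to *Amh*, and *AA414768* (0.125) and *Ccdc160* (0.176) to *Amhr2*. *Inha* had the most distant neighbours, *Tcf7* (0.410) and *Plekhb1* (0.425). *Daglb* (0.0978) and *Fndc3b* (0.0986) were nearest to *Inhba*, and *Mtcl1* (0.141) and *Basp1* (0.155) to *Inhbb*. *Sepsecs* (0.0547) and *Ctns* (0.0633) were nearest to *Acvr2a*, and *Plrg1* (0.0774) and *Srsf4* (0.0851) to *Acvr2b*. None of the 8 genes was among the nearest pair of another member. *Inhba* (in adult testis) and *Acvr2b* (in both tables) fell below that mean FPKM, so they could not have been found.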

How the data were processed

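RNA was enriched with oligo(dT) and sequenced on the BGISEQ platform. The authors aligned reads with HISAT (genome, GRCm38.p6) and Bowtie2 (reference genes), and RSEM gave the FPKM. The adult testis samples are not described in the study's methods. The deposited tables hold, for each sample, estimated counts (not normalized), FPKM values (scaled to gene length and library size by the authors) and TPM values (scaled by the authors to the same total in each sample). Tool versions are not given in the sources used here. No column with values was left unused (0).

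The members, gene lists and tests were chosen with earlier results of these data known. Estimated counts were rounded and tested with edgeR 4.0.16 (quasi-likelihood, TMM, Benjamini-Hochberg adjustment), on genes with at least 0.5 FPKM in at least 2 samples (day 7) or 3 (adult). TMM factors were 0.984 to 1.02 at day 7, 0.711 to 0.761 in the adult controls and 1.27 to 1.42 in the adult samples labelled knockout. Standard errors were obtained from the fitted change and its F statistic. Ratios used log2(FPKM + 0.1), which understates the change of low genes. The named genes are the 8 members, *Rnf20*, up to 4 called genes per direction of each pathway list (or the 3 with the smallest p), the 2 genes of nearest pattern, and the first marker of a list. A gene under this rule is not reported here. *Sf3a2* and *Orc4* were named for their position, and *Smad4* as a shared list gene. *Tgfbr3* and *Crem* values were shown as examples.

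The fit was tested on simulated counts. At day 7 it recovered 71.9% of genes changed 1 log2 unit and 92.8% of those changed 2, among 12880 genes, and in adult testis 16.8% and 81.6% among 15919. False calls among unchanged genes were 5 in all at day 7 and 4 in all in adult testis, with both sizes simulated together. How the simulated spread compares with that of the knockout samples is not given. The recovery is therefore no measure of power in the real data, where edgeR called 0 genes at day 7. Alternatives were other scalings, filters, pseudocounts, TPM, DESeq2 1.42.0, limma 3.58.1, the replicate block and each sample left out. R 4.3.3 and Python 3.11.15 (numpy 2.4.6, pandas 2.3.3) were used.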

Additional observations from a re-analysis of the deposited data

Results flagged for a closer look

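Of the 8 genes, 3 moved in opposite directions in the 2 tables without overlap of the groups, on TMM-scaled and on total-scaled counts. For adult *Amh* the gap was narrow after TMM scaling. The first knockout sample had a scaled value of 1.92 (39 counts), against 1.70 (21 counts) in the third control. Whether that gap exceeds counting error was not tested. *Amh* had a log2 fold change of −0.69 in day 7 cells against 2.95 in adult testis. *Amhr2* had −1.19 and 0.72, and *Inha* −1.40 and 1.73. None of the 3 was called at day 7, and all 3 were called in adult testis. Of 12378 genes tested in both tables, 11.6% were lower at day 7 and higher in adult testis without overlap in this way, and 3.17% the reverse. The difference between the tables was not tested, since one holds cultured Sertoli cells and the other testis tissue, and age, culture and cell mixture cannot be told apart there. Groups of 2 or 3 samples are too small for a search for single outlying samples.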

How the results depend on the processing

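Depth limits adult *Inhba*, with 13 counts over the controls. It also limits *Fshr* in the first knockout sample, with 13 counts at day 7 and 10 in adult testis. Adult *Amh* rests on 15 to 21 counts in each control. The exact tests could not pass 0.05, so they say nothing about stability. Leaving out 1 sample at a time (also with total-count scaling for the first knockout sample) gave 0 to 5 called members at day 7, beside 0.0% to 37.7% of all genes, and 2 to 7 in adult testis, beside 74.0% to 88.0%, and 0 to 35 list genes called at day 7. Of the 8 genes 1 passed an absolute log2 fold change over 1 with an adjusted p under 0.001 in adult testis, beside 46.7% of all genes, where 5 were called at an adjusted p under 0.05. With the replicate block 3 adult members were called, beside 76.7% of all genes (*Amhr2*, *Inha* and *Inhba*; *Amh* had 2.51, adjusted p = 0.0638, and *Acvr2a* −0.44, adjusted p = 0.0546) and 0 at day 7. Same-numbered samples were not shown to be paired (correlation of deviations 0.0316 at day 7 and 0.00762, 0.00624 and 0.0274 in adult testis). Over all genes DESeq2 called 581 at day 7, where edgeR called 0, with 1997 at an unadjusted p under 0.05.

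Of the log2 fold changes under the alternatives, 85 at day 7 and 92 in adult testis kept their direction and side of the threshold, 11 and 9 newly passed it, 0 and 16 no longer did, and 7 and 9 changed sign. Of the 9 adult sign changes, 4 (*Acvr2b*) also newly passed and 4 (*Acvr2a*) also lost the call. Directions changed in the following cases, and the causes were not tested. Adult *Acvr2a* was at 0.40 with total counts, 0.40 and 0.32 with limma on log2(FPKM + 0.1) and log2(FPKM + 1), and at 0.36 with total counts and the first knockout sample left out, while leaving out samples alone gave −0.56 to −0.35. Adult *Acvr2b* was at 0.70, 0.58 and 0.29 in these and at 0.64 with total counts and the first knockout sample left out, while leaving out samples alone gave −0.19 to 0.0065 (the latter without the second knockout sample). The FPKM alternatives carry no TMM factor. *Inhbb* at day 7 was at −0.00083 with total counts and −0.0095 and −0.0091 with limma. With samples left out at day 7, *Fshr* ranged from −2.34 to 0.039, *Inhbb* from −0.13 to 0.19 and *Acvr2b* from −0.30 to 0.094 (0.052 without the first knockout sample and with total counts). Day 7 ratios so tried ranged from −0.64 to 0.12 (*Inhba*/*Inhbb*), −0.84 to 1.47 (*Amh*/*Fshr*), −0.0080 to 1.95 (*Amh*/*Inha*), −1.44 to 0.12 (*Amhr2*/*Amh*) and −0.21 to 0.16 (*Acvr2b*/*Acvr2a*). Adult ratios ranged from −1.39 to 1.11 (*Inhbb*/*Inha*), −0.054 to 2.22 (*Amh*/*Inha*) and −2.39 to 0.37 (*Fshr*/*Inha*). Relative to Sertoli markers, day 7 *Fshr* ranged from −0.95 to 0.13, *Amh* from −0.70 to 0.52 and *Inhba* from −0.37 to 1.09, and adult *Amhr2* from −0.75 to 0.13, *Inha* from −0.46 to 1.17 and *Inhbb* from −0.22 to 0.65. A pseudocount of 1 gave −0.068 for *Amh*/*Fshr* and 0.024 for *Acvr2b*/*Acvr2a* at day 7, 0.060 for day 7 *Fshr* relative to Sertoli markers, and in adult testis −1.06 for *Inhba*/*Inha*, −0.42 for *Inhba*/*Inhbb*, −0.036 for *Amh*/*Inha*, −0.037 for *Acvr2b*/*Acvr2a* and −0.40 for *Inhba* relative to Sertoli markers. The median of the Sertoli markers gave 0.26 for *Amh* at day 7 and −0.36 for adult *Inhbb*. The combination of the first knockout sample left out with total counts, and samples left out for the lists, were chosen after seeing the data.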
